A study of Mus musculus with 15 samples.

Results

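Chemokines are small secreted proteins that steer migrating cells, and they were read here together with their receptors in mouse medulloblastoma, a tumour of the cerebellum, and in normal mouse cerebellum. The genes were all those whose symbol is Ccl, Cxcl, Ccr or Cxcr with a number, together with Ackr1 to Ackr4, Xcl1, Xcr1 and Cx3cl1. Of 66 RefSeq genes that fit this description, 56 were on the array by name, out of 17158 named genes, and they were covered by 70 probes. These were 34 ligands, 18 signalling receptors and 4 atypical receptors. The 10 without a named probe were Cxcl11, Ccl26, Ccl27b, Ccl21b, Ccl21c, Ccl21d, the pseudogene Ccl16-ps and the pseudogenes Ccl19-ps1, Ccl19-ps2 and Ccl19-ps3.

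The study comprised 15 arrays of 1 sample each, in 5 groups of 3. The tumours, MB1 to MB12, had arisen in Ptch1+/- mice of the C3B6F1 background, which carry a single working copy of the hedgehog receptor Ptch1 and were killed when moribund. MB1 to MB3 were S-type tumours of mice that received no radiation, MB4 to MB6 S-type tumours after 0.2 Gy of X-rays, MB7 to MB9 R-type tumours after 0.2 Gy and MB10 to MB12 R-type tumours after 1.5 Gy, with irradiation on postnatal day 1. The letters S and R are not explained in the labels. The 3 normal cerebella, NC1 to NC3, came from unirradiated mice whose strain and genotype the labels do not state. The ages, given without a unit, were 103 to 113 for the normal mice, 128 to 173 for the S-type mice and 87 to 127 for the R-type mice, so that type cannot be told apart from age, and R-type tumours share a dose with S-type tumours only at 0.2 Gy. MB6 came from a male and all other mice were female. The labels name single animals, so the spread between arrays of a group includes the spread between mice. The level of Ptch1 was −3.33 to −3.03 in the normal cerebella, −2.08 to −1.46 in S-type and −3.16 to −2.71 in R-type tumours on the log2 scale explained next.

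Each value is the log2 of a probe's signal less the 75th percentile of all probes on that array, so that a level of 0 is the 75th percentile and 1 unit is a doubling. Levels are compared between samples for the same probe and never between genes. That 75th percentile lay at signals of 1183.9 to 1611.1 over the 15 arrays, and 59.1% to 66.5% of probes were well above background, as the scanner software calls it. With 3 arrays in a group, their number sets how precise a group's value can be. Markers of cell types differed in RNA between tumours and normal cerebellum. Among all tested names 43.5% were higher in tumours and 35.4% lower. Of 12 granule neuron precursor markers 8 were higher and 2 lower in tumours, of 8 markers each of mature granule neurons and Purkinje cells all 8 were lower, and of 16 microglia and macrophage markers 12 were higher and 2 lower. In whole tissue, fewer cells of a type and less RNA per cell cannot be told apart.

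As background, chemokines act through receptors coupled to inhibitory G proteins. Inflammatory chemokines are switched on by cytokines and draw in leukocytes, whereas homeostatic ones are made constantly and place cells in tissues. In the developing cerebellum Cxcl12 from the meninges holds granule neuron precursors, which carry its receptor Cxcr4, at the outer surface while they divide. Atypical receptors bind chemokines without signalling through G proteins and remove or transport them.

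The 250 bases before the transcription start of 5 genes are shown: the ligand, the receptor and the scavenger of the Cxcl12 axis, because their values are described first, and Cxcl10 and Cxcl1, chosen after the search as inflammatory ligands whose windows held NF-kappaB matches. They are RefSeq sequences of build GRCm38.p6, each given 5′ to 3′ on the strand of its gene: Cxcl12 at chr6:117168285-117168534 on the plus strand, Cxcr4 at chr1:128592300-128592549 on the minus strand, Ackr3 at chr1:90203730-90203979 on the plus strand, Cxcl10 at chr5:92348890-92349139 on the minus strand and Cxcl1 at chr5:90890995-90891244 on the plus strand. Each window ends at the last base before the annotated start of exon 1. Capitals mark matches, on either strand, to 5 motifs: the NF-kappaB consensus, the core of the interferon-stimulated response element, the GLI consensus site, the GC box GGGCGG and the TATA box TATAAA.
Cxcl12: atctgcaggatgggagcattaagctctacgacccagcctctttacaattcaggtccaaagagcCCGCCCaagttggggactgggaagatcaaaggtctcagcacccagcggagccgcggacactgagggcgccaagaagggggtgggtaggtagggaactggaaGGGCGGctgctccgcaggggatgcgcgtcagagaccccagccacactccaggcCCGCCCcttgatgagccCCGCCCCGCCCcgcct
Cxcr4: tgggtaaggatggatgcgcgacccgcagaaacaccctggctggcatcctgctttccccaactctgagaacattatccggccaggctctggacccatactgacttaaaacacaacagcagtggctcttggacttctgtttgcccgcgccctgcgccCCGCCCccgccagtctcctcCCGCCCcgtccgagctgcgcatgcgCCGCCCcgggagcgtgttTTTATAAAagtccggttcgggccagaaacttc
Ackr3: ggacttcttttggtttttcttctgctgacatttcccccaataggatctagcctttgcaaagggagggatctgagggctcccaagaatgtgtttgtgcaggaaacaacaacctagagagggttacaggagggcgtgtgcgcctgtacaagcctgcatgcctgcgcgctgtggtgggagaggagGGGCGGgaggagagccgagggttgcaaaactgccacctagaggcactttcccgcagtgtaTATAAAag
Cxcl10: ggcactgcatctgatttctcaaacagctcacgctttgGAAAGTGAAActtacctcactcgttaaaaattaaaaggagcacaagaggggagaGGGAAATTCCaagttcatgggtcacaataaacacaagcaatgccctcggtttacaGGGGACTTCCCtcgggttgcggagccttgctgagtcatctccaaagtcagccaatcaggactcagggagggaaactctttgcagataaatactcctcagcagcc
Cxcl1: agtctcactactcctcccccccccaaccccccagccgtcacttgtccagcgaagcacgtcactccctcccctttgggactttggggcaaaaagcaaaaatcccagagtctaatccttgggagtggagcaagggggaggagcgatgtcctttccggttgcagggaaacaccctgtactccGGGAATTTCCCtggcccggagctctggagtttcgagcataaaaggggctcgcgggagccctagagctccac
The windows of Cxcl12, Cxcr4 and Ackr3 held GC boxes, and those of Cxcr4 and Ackr3 also a TATA box. The Cxcl10 window held an interferon-response core and NF-kappaB matches, 2 of which overlap, and the Cxcl1 window 2 overlapping NF-kappaB matches. A window was found for 43 of the 56 genes. The NF-kappaB consensus was in the window of 11 of the 43, and in 7.25% of all 32851 windows of this length. It was in 4 of 14 windows of genes higher in tumours and 1 of 9 of genes lower in them. The windows of Ccl3, Ccl8 and Ccl12, which were also higher, held no match to it. The interferon-response core was in 3 of the 43 (Ccl19, Cxcl10 and Cxcl14; 2.98% of all windows), the GC box in 8 (32.7%), the TATA box in 14 (12.4%) and the GLI site in 0 (0.225%). A match is a description of letters and does not show binding.

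Of the 56 genes, 37 were well above background on at least 3 arrays and were tested: 23 of 34 ligands, 10 of 18 signalling receptors and all 4 atypical receptors. The probes of 13 genes were above background on no array. These were the ligands Ccl1, Ccl20, Ccl22, Cxcl2, Cxcl15, Cxcl17 and Xcl1 and the receptors Ccr1, Ccr3, Ccr4, Ccr8, Cxcr1 and Cxcr5. Another 6 (Ccl28, Ccr1l1, Ccr7, Cxcl3, Cxcl9 and Cxcl13) passed on 1 or 2 arrays. Hence Ccr1 and Ccr3, receptors for several CC ligands described next, were not above background on any array, and Ccr7, the receptor for Ccl19 and Ccl21a, was so in MB1 and MB7. A second probe of Ccr4, not the one used, was above background on 1 array, NC1. At the other end, 16 genes were above background on all 15 arrays. The 6 genes Ccl3, Ccl4, Ccl7, Ccl9, Ccl11 and Cxcl10, all ligands, were above background in all 12 tumours and in no normal cerebellum.

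Between tumours and normal cerebella, 22 of the 37 tested genes were higher and 10 lower at an adjusted p under 0.05 (limma, Benjamini-Hochberg over 21661 tested names). The background is wide, since 78.9% of all tested names passed, 43.5% higher and 35.4% lower. Of the 22, 10 had passed the filter through tumours alone, so the filter favoured a difference in them. Of the 10 lower genes Ackr4 had passed through normal cerebella alone. The counts therefore describe these genes and support nothing further. By class, 15 ligands were higher and 6 lower, and 7 receptors were higher and 4 lower. The median change of the 37 was 1.73 on the log2 scale, beside 0.14 for all tested names. The tumour and normal values of 30 of the 32 called genes did not overlap, which held for 65.6% of all names, and the exceptions were Ccl24 and Cxcr6. Within each of the 3 slides that carried a normal cerebellum, all 32 called genes differed in the same direction. For the 30 genes without overlap this had to be so, and it adds no support. Against the same 3 normal cerebella, 20 genes were higher and 9 lower in each of the 4 tumour groups, 6 passed in some groups, and 2, Ccr10 and Xcr1, passed in none. Of all tested names, 41.2%, 40.9%, 40.9% and 41.2% were higher and 33.1%, 33.0%, 33.3% and 33.4% lower in the S-type groups at 0 and 0.2 Gy and the R-type groups at 0.2 and 1.5 Gy, in that order.

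**Figure D1:**
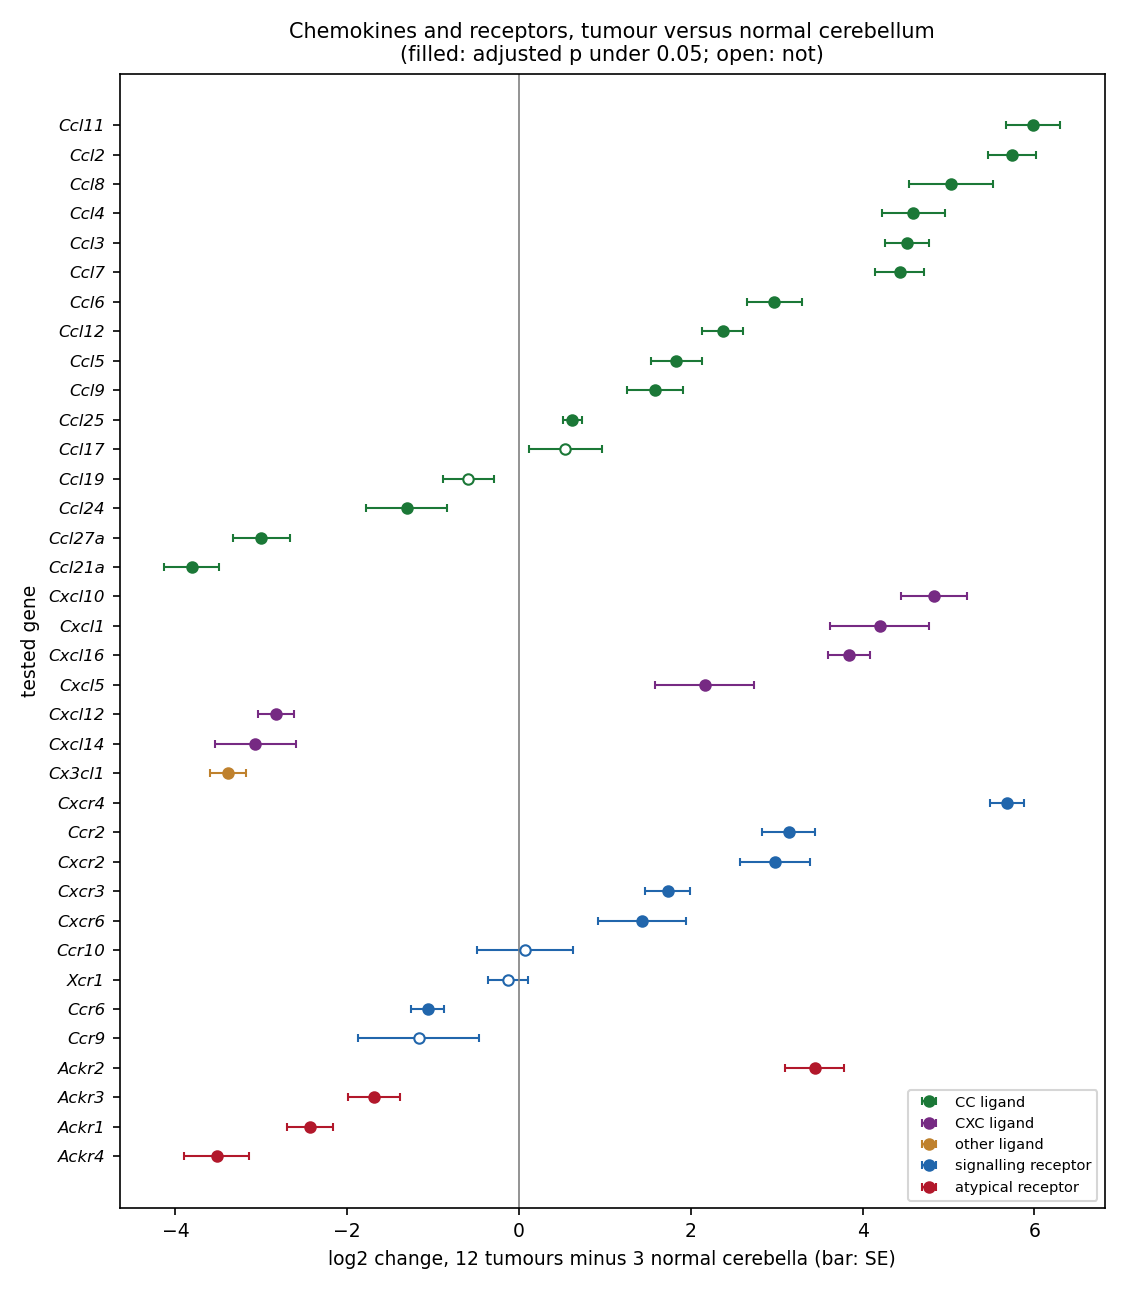
The log2 change of 36 of the tested genes, as the mean of 4 tumour groups (12 tumours) minus 3 normal cerebella, with its SE, grouped by class and coloured by class. Filled points passed at an adjusted p under 0.05; Cxcr4 at 5.68 and Ccl2 at 5.74 lie far to the right and Ccl21a at −3.81 to the left, and for genes above background in no normal cerebellum, such as Ccl11, or in no tumour, Ackr4, the point is a fitted value and not a measured fold.

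Cxcr4, the receptor that holds dividing granule precursors in place, rose 51.1-fold in tumours. Its level was −4.59, −4.97 and −5.08 in NC1 to NC3, and ran from 0.30 in MB2 over a median of 0.85 to 1.21 in MB1 in the tumours. No tumour came near the normal range, and the mean was 0.80 ± 0.29 (SD, n = 12) against −4.88 ± 0.26 (SD, n = 3), a change of 5.68 on the log2 scale (SE 0.196, limma adjusted p = 9.7e-11). Against the shared normal samples the change was 5.64 and 5.73 in S-type tumours at 0 and 0.2 Gy and 5.70 and 5.63 in R-type tumours at 0.2 and 1.5 Gy. A second Cxcr4 probe gave 5.42 (SE 0.199). Across the 12 tumours Cxcr4 had an SD of 0.29, the second lowest of the 26 tested genes that were above background in every tumour.

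Cxcl12, the ligand of Cxcr4, fell 7.12-fold. Its level was 1.83, 2.09 and 1.70 in the normal cerebella and −1.76 to −0.41 in the tumours, with a median of −1.01. The lowest tumour was MB3 and the highest MB7, and the groups did not overlap. The means were −0.96 ± 0.40 (SD, n = 12) and 1.87 ± 0.20 (SD, n = 3), a change of −2.83 (SE 0.207, limma adjusted p = 6.99e-08), and against the shared normal samples −3.15, −2.82, −2.49 and −2.86 in the tumour groups in order of type and dose. This probe is annotated to transcript NM_001012477. A second probe, annotated to NM_021704, read −1.05, −1.07 and −1.42 in the normal cerebella and −3.02 to −0.81 in the tumours, where MB2 lay above all normal samples. Its change was −0.98 (SE 0.372, limma adjusted p = 0.029 among all probes). The direction was shared and the size was not, and with the mean of both probes the change of Cxcl12 was −1.90.

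Ackr3, the atypical receptor that takes up Cxcl12, fell 3.22-fold. Its level was −0.77, −0.69 and −1.10 in the normal cerebella and −3.96 to −1.33 in the tumours, with a median of −2.57. MB7 was the highest tumour and MB3 the lowest, and all 12 lay below the normal samples. The change was −1.69 (SE 0.305, limma adjusted p = 0.000251). So in the same tumours the receptor was higher while the ligand and the scavenger were lower, each in 12 of 12 tumours by the probes used. Of 10 markers of meningeal fibroblasts, cells that make Cxcl12 in the developing cerebellum, 3 were higher and 2 lower, with a summed signal of 20.5 to 71.2 times the 75th percentile in the normal cerebella and 10.0 to 42.1 in the tumours. Without Ptgds, the brightest of the list in normal tissue and left out after its level was seen, the sums were 7.82 to 17.5 and 9.77 to 41.1, so the order of the ranges depended on that gene. Of 12 endothelial markers 6 were higher and 4 lower, with sums of 18.3 to 19.9 and 12.5 to 23.9. Among all tested names 43.5% were higher and 35.4% lower. The part of these cells in the Cxcl12 result was not tested.

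**Figure D2:**
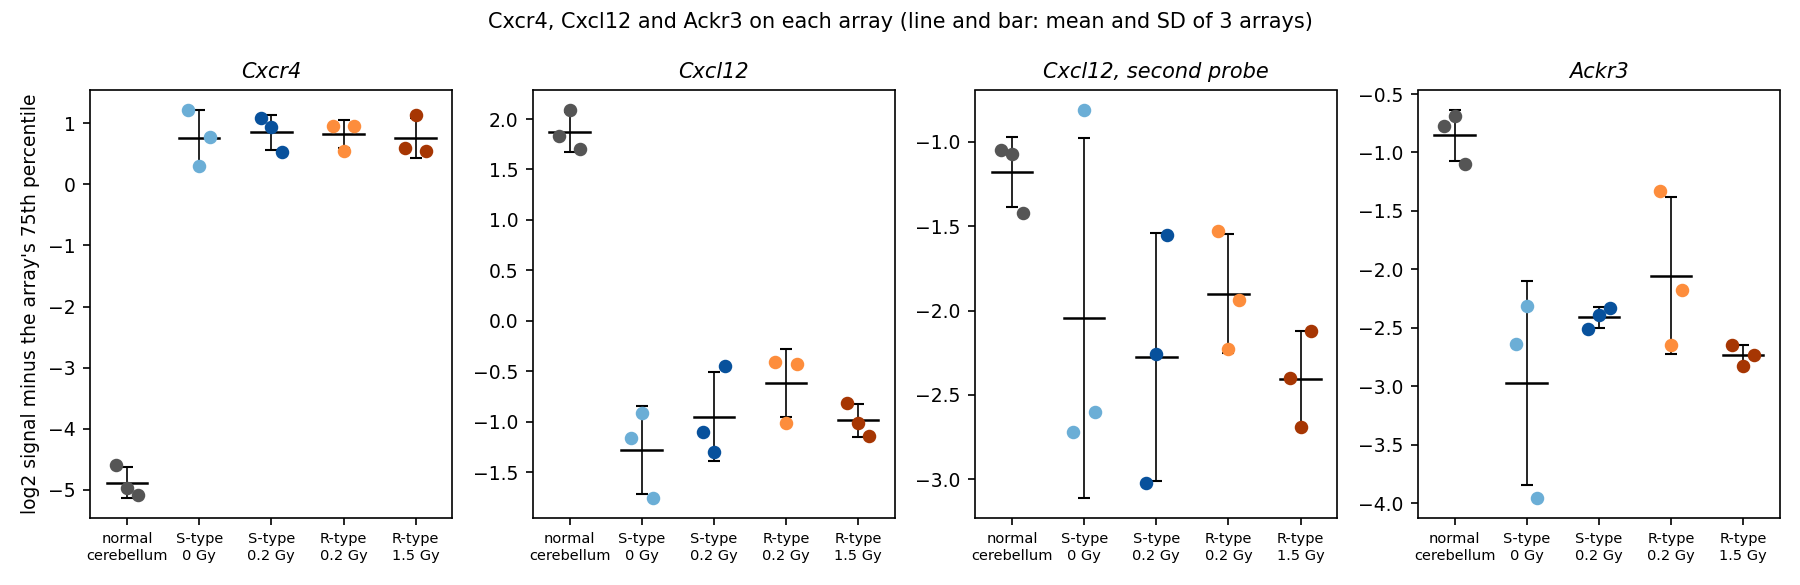
The level of Cxcr4, of Cxcl12 by its 2 probes, and of Ackr3 on each of the 15 arrays, as log2 signal minus the array's 75th percentile, with the mean and SD of 3 arrays per group. Cxcr4 lies between 0.30 and 1.21 in the tumours and below −4.5 in the normal cerebella, and the second Cxcl12 probe is the panel in which a tumour, MB2, lies above the normal samples.

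The ligands of Ccr2, Ccl2, Ccl7 and Ccl12, which draw monocytes, were higher, and so was the related Ccl8. Ccl2 rose 53.3-fold, from −5.23, −4.83 and −4.92 in the normal cerebella to between 0.13 in MB3 and 1.72 in MB6, with a median of 0.77. Its change was 5.74 (SE 0.281, limma adjusted p = 1.92e-09). Ccl7 was not above background in normal tissue and ran from −3.45 to −1.96 in the tumours, at least 6.8-fold higher. Such bounds set the tumour mean against the lowest signal well above background on each normal array, or the gene's own signal there where that was higher. Ccl8 rose by 5.03 (SE 0.487, limma adjusted p = 9.82e-07), with NC3 as the one normal sample above background. Its normal levels were −7.77, −6.72 and −4.54 and its tumour levels −2.17 to −0.59. Ccl12 rose by 2.37 (SE 0.239), from −5.08 to −4.90 in the normal cerebella to −3.34 to −1.86 in the tumours. Ccr2 itself was above background in 10 of 12 tumours and in no normal cerebellum, at least 2.61-fold higher, though a second Ccr2 probe was above background on no array.

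The inflammatory ligands Ccl3, Ccl4 and Ccl5, which draw macrophages and T cells, were also higher. Ccl3 was −3.54 to −1.91 in the tumours, at least 6.22-fold above the normal cerebella, and Ccl4 was −4.01 to −1.96, at least 5.45-fold above them. MB6 was the highest tumour for both. Ccl5 was measured in the normal cerebella, at −3.76, −3.68 and −2.95, and was −2.31 to −0.90 in the tumours, a rise of 1.83 (SE 0.294, limma adjusted p = 9.51e-05). The groups did not overlap for any of these 3 ligands, which held for 65.6% of all names. Ccl3 and Ccl4 had passed the filter through tumours alone, so their lack of overlap adds no support.

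The eosinophil attractant Ccl11 was higher as well. It was not above background in any normal cerebellum, where its probe read −7.79 to −7.68, and ran from −2.39 in MB6 over a median of −1.95 to −0.65 in MB1. That is at least 13.8-fold higher. Its principal receptor Ccr3 was not above background on any array by either of 2 probes. Ccl24, another eosinophil attractant, went the other way by −1.31 (SE 0.475, limma adjusted p = 0.0237). Its values of −4.56, −4.77 and −6.40 in NC1 to NC3 overlapped those of the tumours, −7.93 to −4.24, and it was above background in 2 normal and 2 tumour samples. The Ccl24 call was lost without NC1 (−0.97, limma adjusted p = 0.136), without NC2 (−1.07, adjusted p = 0.111) and with normexp background correction (−0.23, adjusted p = 0.179). The myeloid attractants Ccl6 and Ccl9 rose. Ccl6 rose by 2.97 (SE 0.321), with tumour levels of −2.0 to −0.38, and Ccl9 was at least 2.61-fold higher.

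Among the CXC ligands, Cxcl10, an interferon-inducible attractant of T cells, was not above background in the normal cerebella and ran from −3.02 in MB11 over a median of −1.22 to 0.56 in MB7, at least 20.8-fold higher. Its receptor Cxcr3 was above background in 6 of 12 tumours and in no normal cerebellum, at least 1.11-fold higher. Cxcl16, a membrane-bound ligand of Cxcr6, rose by 3.84 (SE 0.243, limma adjusted p = 1.84e-08), from −4.86, −4.56 and −5.80, of which NC3 was not above background, to −1.72 to −0.57. A second Cxcl16 probe, above background on all 15 arrays, gave 2.73 (SE 0.220). Cxcr6 was above background in 5 tumours and in no normal cerebellum, and its values overlapped. Its fitted difference of 1.43 (SE 0.515, limma adjusted p = 0.0225) passed the threshold, but no fold could be bounded above 1. The Cxcr6 call was lost without NC2 (1.0, limma adjusted p = 0.144) or NC3 (1.47, adjusted p = 0.0561).

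The neutrophil attractants Cxcl1 and Cxcl5 were both higher. Cxcl1 was −7.43, −6.65 and −4.67 in the normal cerebella, of which only NC3 was above background, and −3.35 to −0.59 in the tumours, a change of 4.2 (SE 0.578, limma adjusted p = 2.43e-05). Cxcl5 was −4.54 to −1.46 in the tumours and changed by 2.16 (SE 0.574, limma adjusted p = 0.00415), with 2 of 3 normal samples above background. Cxcr2, the receptor of both, was above background in 10 of 12 tumours and in no normal cerebellum, at least 1.64-fold higher, and its second probe was above background on no array. The related ligands Cxcl2 and Cxcl3 were above background on no array and on 1 array.

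**Figure D3:**
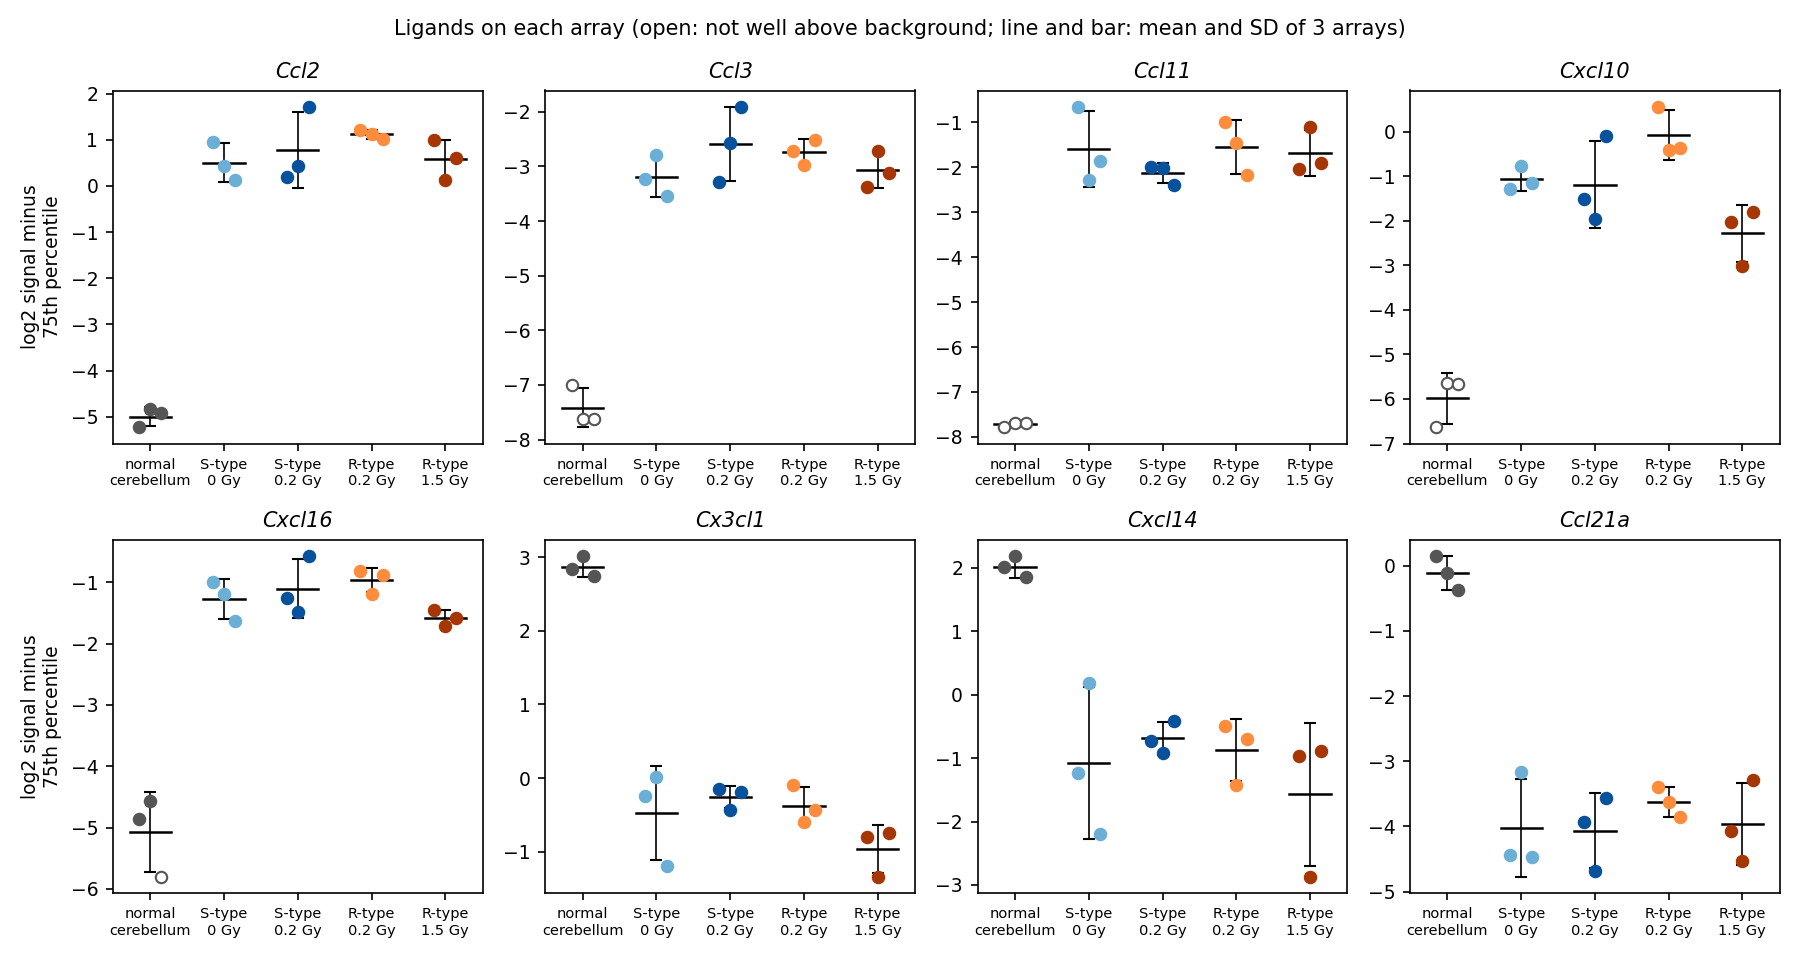
The level of 8 ligands on each array, as log2 signal minus the array's 75th percentile, with open circles where the probe was not well above background and the mean and SD of 3 arrays per group. Ccl2, Ccl3, Ccl11, Cxcl10 and Cxcl16 are higher in every tumour than in every normal cerebellum, and Cx3cl1, Cxcl14 and Ccl21a are lower in every tumour.

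Homeostatic ligands were among the lower genes. Cx3cl1, the membrane-bound ligand by which neurons address microglia, fell 10.5-fold. It was 2.84, 3.02 and 2.75 in the normal cerebella and −1.34 to 0.02 in the tumours, a change of −3.39 (SE 0.213, limma adjusted p = 1.77e-08). Cxcl14, a constitutively made ligand, went from 2.01, 2.19 and 1.85 to between −2.87 in MB11 and 0.19 in MB2, a change of −3.07 (SE 0.468, limma adjusted p = 6e-05). The lymphoid-tissue ligand Ccl21a went from 0.15, −0.11 and −0.37 to −4.69 to −3.16, a change of −3.81 (SE 0.318, limma adjusted p = 2.44e-07). Ccl27a, known as a ligand of Ccr10, went from 1.98, 1.82 and 1.98 to −2.03 to 0.02, a change of −3.00 (SE 0.334, limma adjusted p = 3.66e-06). None of these 4 ligands, all of them called lower, overlapped between tumours and normal cerebella, which held for 65.6% of all names. Ccl21a and Ccl27a have near-identical copies (Ccl21b, Ccl21c, Ccl21d and Ccl27b) whose RNA their probes may also bind, so these values may be sums over copies. Ccl25, a ligand of Ccr9, rose by 0.62 (SE 0.114, limma adjusted p = 0.000292), from between −0.10 and 0.05 to between 0.28 and 0.97, and its second probe by 0.65 (SE 0.0931).

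The atypical receptors moved in both directions. Ackr2, which removes inflammatory CC ligands, rose 10.8-fold, from −5.13, −5.11 and −4.89 in the normal cerebella to −2.85 to −0.78 in the tumours, a change of 3.44 (SE 0.348, limma adjusted p = 1.47e-06). The lowest tumours were MB2 and MB6. Ackr1, which binds many inflammatory chemokines on venules and red cells, fell from 3.43, 3.31 and 3.38 to between 0.48 and 2.11, a change of −2.43 (SE 0.270, limma adjusted p = 3.49e-06). Its highest tumours were MB2 and MB6, the lowest for Ackr2. All 3 tested markers of blood were lower in tumours, beside 35.4% of all tested names. Their summed signals were 7.72 to 15.8 in the normal cerebella and 0.539 to 3.84 in the tumours. All 8 markers of Purkinje cells were lower too, with sums of 339 to 361 in the normal cerebella and 5.81 to 10.2 in the tumours. The part of blood, Purkinje cells or other cells in the Ackr1 result was not tested. Ackr4, which removes Ccl19, Ccl21 and Ccl25, was −3.70, −3.73 and −3.89 in the normal cerebella and above background in no tumour, at least 3.0-fold lower. Ccr6, the receptor for Ccl20, fell by 1.06 (SE 0.192, limma adjusted p = 0.000257), from −4.01 to −3.58 to between −5.48 and −4.51.

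For 5 genes no change passed the threshold. Ccl19, a ligand of Ccr7, was 0.18, −0.55 and −0.36 in the normal cerebella and −1.86 to 0.18 in the tumours, a difference of −0.59 with a 95% interval of −1.25 to 0.06 (limma adjusted p = 0.0873). A second Ccl19 probe gave −0.23 (SE 0.554), and both may also bind transcripts of pseudogene copies. Xcr1, a receptor of cross-presenting dendritic cells, differed by −0.13 (95% interval −0.63 to 0.38) and a second Xcr1 probe was above background on no array. Ccl17, a ligand of Ccr4, differed by 0.54 (−0.39 to 1.46), Ccr10 by 0.07 (−1.16 to 1.30) and Ccr9 by −1.17 (−2.71 to 0.38). Ccr9 and Ccr10 were above background on only 4 and 3 arrays. The limma adjusted p fell under 0.05 for Ccl19 without MB7 (−0.67, adjusted p = 0.0476), without scaling between arrays (−0.77, adjusted p = 0.0414) and with slide as a term (−0.52, adjusted p = 0.0444), and for Ccr9 without MB5 (−1.44, adjusted p = 0.0269) and with slide as a term (−1.59, adjusted p = 0.0339).

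Leukocyte markers went in both directions beside the inflammatory genes. The summed signal of 16 microglia and macrophage markers was 13.1 to 17.5 times the 75th percentile in the normal cerebella and 40.3 to 73.7 in the tumours. Of these 16 markers 12 were higher and 2 lower. Among all tested names 43.5% were higher and 35.4% lower, which bears on each list here. Adgre1 rose by 3.18 (SE 0.101), C1qc by 3.12 (SE 0.122) and Aif1 by 3.70 (SE 0.156). The 2 lower markers were P2ry12, with a change of −0.66 (SE 0.193), and Cd163, with −2.88 (SE 0.267). Cd163 was above background in 1 tumour. Of 6 tested monocyte and neutrophil markers 5 were higher, among them Mpo by 1.61 (SE 0.115) and Csf3r by 2.12 (SE 0.238), while Ly6c2 fell by 1.87 (SE 0.183), and Elane was above background on no array. The sums for that list were 5.23 to 6.41 in the normal cerebella and 1.79 to 7.03 in the tumours, and, leaving out Ly6c2 after its level was seen, 0.110 to 0.276 and 0.650 to 5.18. Of 5 tested dendritic cell markers 4 were higher and 1 lower, with sums of 0.868 to 0.909 and 1.62 to 4.80. Of 7 tested lymphocyte markers 1 was higher and 3 lower, and Cd4, Cd8a, Ncr1 and Ms4a1 were above background on no array. The lymphocyte sums were 12.7 to 14.1 and 0.336 to 0.636, and without Klrb1c, left out after its level was seen, 0.394 to 0.421 and 0.277 to 0.438. The part of these cells in the chemokine results was not tested.

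Some of the called genes lie close together in the RefSeq gene order, while others, such as Cxcr4, Cxcl12 and Ackr3, lie in no such run. Chromosome 11 carries a run of 11 CC ligands, Ccl2, Ccl7, Ccl11, Ccl12, Ccl8, Ccl1, Ccl5, Ccl9, Ccl6, Ccl3 and Ccl4, of which 10 were tested and all 10 were higher. On chromosome 5, the run from Cxcl5 to Cxcl10 holds 7 CXC ligands, of which 3 were tested (Cxcl1, Cxcl5 and Cxcl10) and all 3 were higher. In a run of receptors on chromosome 9, Ackr2, Cxcr6 and Ccr2 were higher, and Ccr9 and Xcr1 made no call. On chromosome 4, Ccl27a and Ccl21a were lower and Ccl19, between them, made no call. On chromosome 8, Cx3cl1 was lower, Ccl17 made no call and Ccl22 was not tested. Over all tested names 43.5% were higher and 35.4% lower. The filter bears on these counts as on the counts over all genes.

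Genes through which chemokine receptors act were read from a list chosen for their role, with results of these data known. Of 39 tested genes of receptor signalling and turnover, 23 were higher and 11 lower. Among all tested names 43.5% were higher and 35.4% lower. Those shares apply to each count of this paragraph, and a count near them is no result about its list. The G protein subunit Gnai1 fell by 2.75 (SE 0.0637, limma adjusted p = 3.26e-12), the Rac activator Tiam1 fell by 2.87 (SE 0.118), and the leukocyte Rac protein Rac2 rose by 2.97 (SE 0.125). Of 16 tested genes of NF-kappaB and cytokine induction, 13 were higher and 1 lower, and Il6, Lta and Csf2 were above background on no array. The TNF receptor Tnfrsf1a rose by 2.42 (SE 0.0868, limma adjusted p = 1.29e-10). Tnfrsf1b and the adhesion molecule Icam1 were above background in all 12 tumours and in no normal cerebellum. Of 20 tested interferon genes, 8 were higher and 4 lower, Ifng was above background on no array, and Ifit2 rose by 3.44 (SE 0.113) while Stat2 fell by 1.98 (SE 0.0799). Of 19 genes that work beside Cxcr4 in granule precursor migration, 5 were higher and 13 lower. Tiam1, which is also on this list, fell by 2.87, while the netrin receptor Dcc rose by 7.11 (SE 0.149) and the integrin Itgb1 by 1.82 (SE 0.0681). Of relatives outside the naming rule, Cx3cr1, the microglial receptor of Cx3cl1, rose by 1.14 (SE 0.0861, limma adjusted p = 9.89e-08) and the platelet and macrophage chemokine Pf4 by 1.47 (SE 0.285, limma adjusted p = 0.000438). Ccrl2 differed by 0.63 (limma adjusted p = 0.101), and Ppbp was above background on no array.

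Between R-type and S-type tumours, 1 of the 37 tested genes, Ccr2, was lower and 0 were higher (limma, Benjamini-Hochberg), beside 21.0% of all tested names that passed, 10.9% higher and 10.1% lower. At an unadjusted p under 0.05 there were 5 (Ccl17, Ccl24, Ccr2, Ccr6 and Cxcr6), beside 35.5% of all names. The type values of none of the 37 were free of overlap, beside 9.34% of all names. The median difference was −0.02, and 0.02 over all names. Ccr2, the receptor by which blood monocytes follow Ccl2, was −4.33 to −2.75 in the S-type tumours with a median of −3.76, and −5.07 to −3.78 in the R-type tumours with a median of −4.66. The ranges overlapped through MB11, the highest R-type tumour. The means were −4.62 ± 0.47 and −3.67 ± 0.59 (SD, n = 6 each), a difference of −0.96 (SE 0.274, limma adjusted p = 0.0291), with all 6 S-type and 4 of 6 R-type tumours above background. Within the 4 slides the difference was −1.28 to −0.44. The Ccr2 call was lost without MB1, MB4, MB8, MB9, MB10 or MB12, where the difference was −0.98 to −0.79 and the limma adjusted p 0.0548 to 0.0638, when only the 4 tumour groups were fitted (adjusted p = 0.0519), with normexp background correction (−0.36, adjusted p = 0.119) and with the mean of its 2 probes (−0.41, adjusted p = 0.0814).

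Neither the ligands of Ccr2 nor the related Ccl8 passed between the types. Ccl2 differed by 0.20 with a 95% interval of −0.35 to 0.75, Ccl7 by 0.20 (−0.36 to 0.76), Ccl8 by 0.12 (−0.83 to 1.08) and Ccl12 by −0.06 (−0.53 to 0.40). Markers of microglia and macrophages and of monocytes and neutrophils were read beside Ccr2. Of 16 microglia and macrophage markers 1 was higher and 2 lower in R-type tumours, beside 10.9% and 10.1% of all names. Their median difference was −0.22, and 0.02 over all names. The summed microglia and macrophage signal was 49.5 to 73.7 in S-type and 40.3 to 64.9 in R-type tumours, Cx3cr1 fell by 0.45 (SE 0.077, limma adjusted p = 0.00234) and P2ry12 by 0.62 (SE 0.172, limma adjusted p = 0.0264), and Cd163 was called higher although above background in a single tumour. None of the 6 tested monocyte and neutrophil markers passed between the types, and Ly6c2 differed by 0.26 (limma adjusted p = 0.283). The part of these cells in the Ccr2 difference was not tested.

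For the Cxcl12 axis every interval of the difference between the types included 0. Cxcr4 differed by −0.02 with a 95% interval of −0.41 to 0.36, Cxcl12 by 0.31 (−0.09 to 0.72) and Ackr3 by 0.29 (−0.30 to 0.89). Ccl17 showed the widest difference of the 37 genes, −1.12 (SE 0.379, limma adjusted p = 0.0555), with S-type values of −5.03 to −3.04 and R-type values of −5.70 to −3.92, and 5 S-type and 2 R-type tumours above background. It passed the threshold without MB3 (−1.41, limma adjusted p = 0.0114), without MB5 (−1.33, adjusted p = 0.0334), without MB7 (−1.33, adjusted p = 0.0315) and without scaling between arrays (−1.34, adjusted p = 0.0231). Without scaling, the share of all called names that were higher in R-type tumours went from 51.9% to 9.04%, and with normexp correction to 68.0%, with a median difference over all names of −0.199 and 0.0633 in place of 0.0207.

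**Figure D4:**
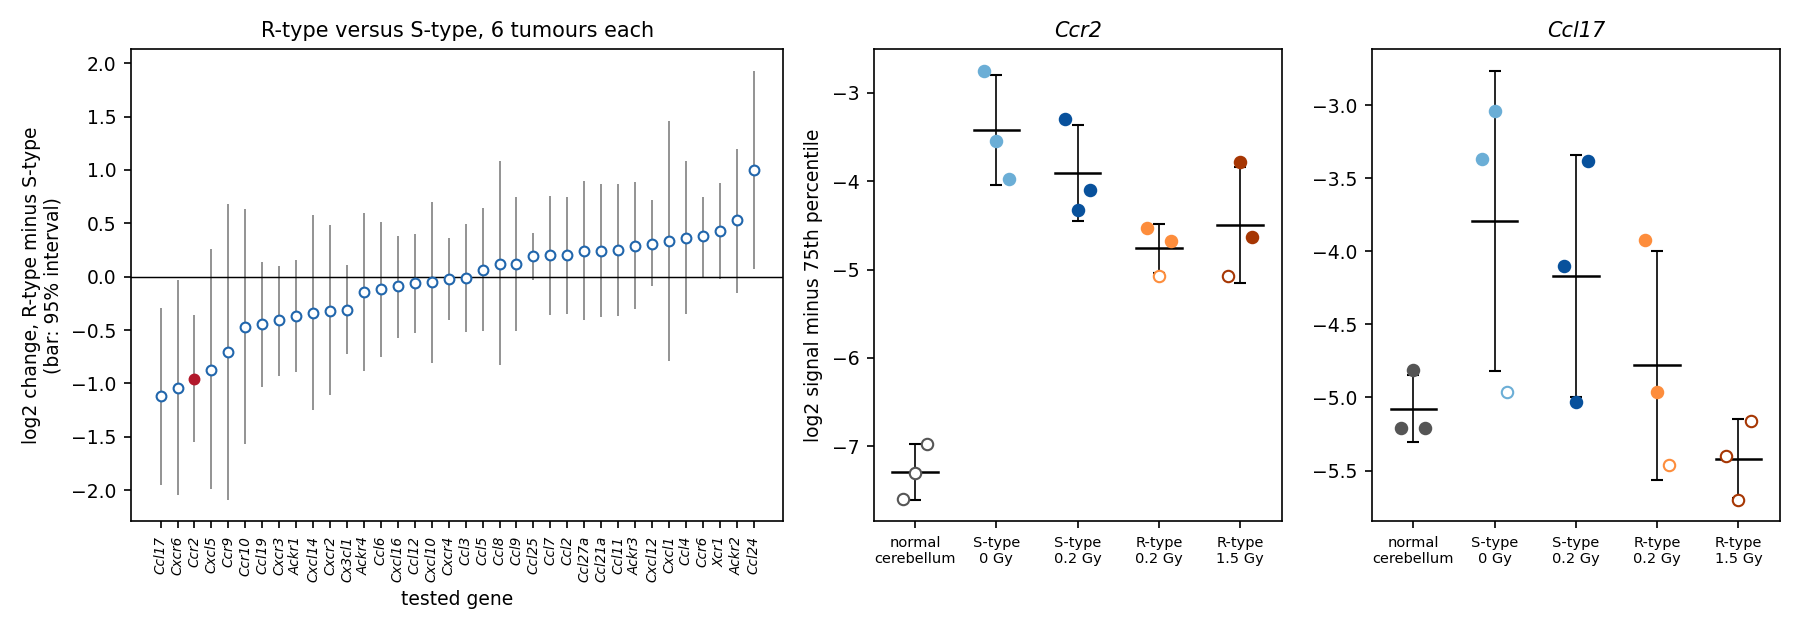
Left, the log2 difference of 36 of the tested genes between 6 R-type and 6 S-type tumours with its 95% interval, ordered by size, with Ccr2 filled as the one gene that passed. Middle and right, the level of Ccr2 and Ccl17 on each array with the mean and SD of 3 arrays per group, where open circles were not well above background; the R-type and S-type values overlap for both.

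At the one dose the types share, 0.2 Gy, none of the 37 genes passed (limma, Benjamini-Hochberg), beside 4.77% of all names, and 6 had an unadjusted p under 0.05, beside 21.9%. The values of 6 genes did not overlap with 3 tumours a side, beside 32.5% of all names. Ccl25 came nearest, at 0.97, 0.54 and 0.96 in MB7 to MB9 and 0.33, 0.28 and 0.39 in MB4 to MB6, a difference of 0.49 (SE 0.144, limma adjusted p = 0.0747). Its second probe gave 0.53 (SE 0.118) with an adjusted p of 0.0276 among all probes. Ccr2 differed by −0.85 at this dose (SE 0.387, limma adjusted p = 0.227).

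Between doses no gene passed either. Within S-type tumours, 0.2 Gy against 0 Gy gave 0 calls (limma) and 2 genes at an unadjusted p under 0.05, beside 0.00462% and 5.75% of all names, and 3 genes did not overlap, beside 8.4%. Within R-type tumours, 1.5 Gy against 0.2 Gy gave 0 calls (limma) and 3 genes at an unadjusted p under 0.05, beside 0.0692% and 7.05%, and 9 genes did not overlap, beside 11.8% of all names. Cxcl10 differed most there. It was 0.56, −0.42 and −0.37 in MB7 to MB9 at 0.2 Gy and −2.03, −3.02 and −1.81 in MB10 to MB12 at 1.5 Gy, a difference of −2.21 (SE 0.487, unadjusted p = 0.000716, limma adjusted p = 0.393). It failed the correction over all names. In the S-type tumours Cxcl10 was −1.29, −0.77 and −1.15 at 0 Gy and −1.51, −1.96 and −0.10 at 0.2 Gy, and its overall difference between the types was −0.05 (95% interval −0.81 to 0.70).

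Among the 26 genes above background in all 12 tumours, the SD between tumours ran from 0.25 for Ccl25 and 0.29 for Cxcr4 to 0.82 for Cxcl14, 0.83 for Cxcl1, 0.98 for Cxcl5 and 0.99 for Cxcl10. Cxcl1 and Cxcl5 draw neutrophils and Cxcl10 draws T cells. An SD on this scale was not compared between genes by a test.

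Levels of ligand and receptor pairs, chosen after the data were seen, were set against each other over the 12 tumours. P-values were adjusted over the 11 pairs computed, of which 8 are given here. Each gene was read by the probe that stands for it, so the second Cxcl12 probe is not covered. Cxcl12 and Ackr3 had Pearson's r of 0.82 (two-sided permutation p = 0.00118, adjusted 0.00649) but Spearman's rho of 0.63 (permutation p = 0.0309, adjusted 0.113), and r of 0.54 without the 2 tumours farthest from the median. Within the 6 S-type and the 6 R-type tumours r was 0.79 and 0.85. Cxcr2 had r of 0.77 with Cxcl5 (permutation p = 0.00319, adjusted 0.0117) and 0.71 with Cxcl1 (permutation p = 0.0093, adjusted 0.0256), with rho of 0.70 (permutation p = 0.0142, adjusted 0.078) and 0.60 (permutation p = 0.042, adjusted 0.116), and r of 0.53 and 0.36 without the 2 farthest tumours. Cxcl12 and Cxcr4 had r of −0.10 (permutation p = 0.752, adjusted 0.838) and rho of −0.13 (permutation p = 0.687, adjusted 0.79). The other 4 pairs given here (Ccr2 with Ccl2 and with Ccl7, Cxcr3 with Cxcl10 and Cxcr6 with Cxcl16) had r of −0.36 to 0.35 and none passed. A slide holds 3 tumours, too few for a value within a slide, and the tumours share their scaling.

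**Figure D5:**
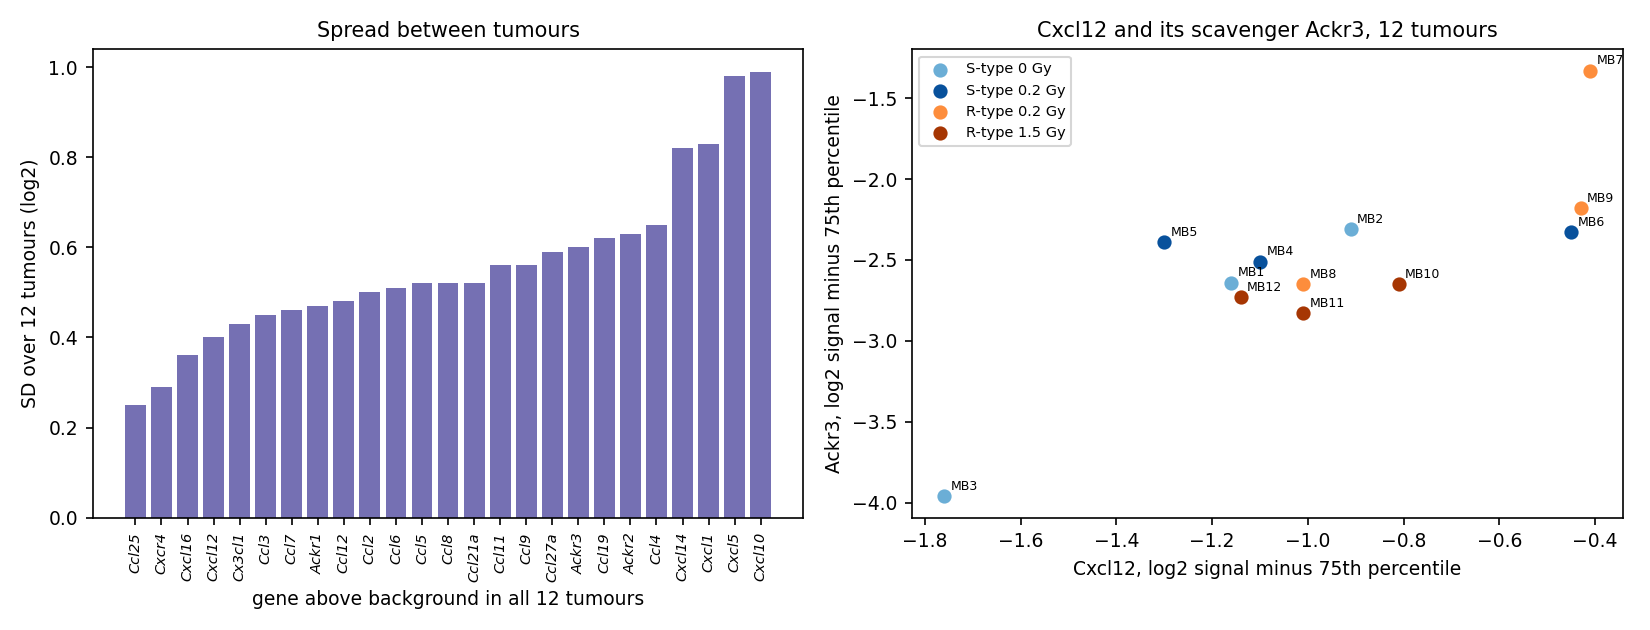
Left, the SD over 12 tumours of 25 genes above background in all of them, from 0.25 for Ccl25 to 0.99 for Cxcl10. Right, the level of Ackr3 against that of Cxcl12 in the 12 tumours, coloured by type and dose, as log2 signal minus the array's 75th percentile, with r of 0.82 and MB3 and MB7 at the lower and upper ends. Cxcl12 is shown by the probe that stands for it and not by its second probe.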

How the data were processed

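RNA of 12 tumours and 3 normal cerebella was read on 15 one-colour Agilent arrays, 1 array per sample, on 4 slides. The deposited spot intensity values were background-subtracted and spatially detrended with no scaling between arrays, per the file headers. The submitters' processing notes name Agilent Feature Extraction 9.5.1. The deposited series table holds log2 values whose making is not given in the sources used here. Its column medians are −0.0795 to 0.152, its MB1 and MB2 columns sum to 0 within 1e-06, and its differences from MB12 follow the scaled log2 signals with r of at least 0.9999, so it was read as log2 less the mean of MB1 and MB2 and used as an alternative alone. Why that reference was taken, and the scale before it, remain unknown.

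Of 41174 probes, 76 were left out for spot flags. The log2 intensity less each array's 75th percentile was used. Probes were named through the RefSeq transcript they are annotated to, and the probe with the highest mean over all arrays stood for a gene. A name was tested if well above background on at least 3 arrays. A model of 5 group means (limma 3.58.1, R 4.3.3, empirical Bayes, two-sided, 10 residual and 1.71 prior degrees of freedom) was fitted to 21661 names with Benjamini-Hochberg adjustment, and tested on simulated data. Tumours were the mean of the 4 tumour groups, and each type the mean of its 2. Summaries used Python 3.11.15 with pandas 2.3.3, numpy 2.4.6 and scipy 1.17.1, with 100000 resamples for a correlation. The limma p-values weigh a difference of means against the spread between samples within the 5 groups.

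The named genes were Cxcl12, Cxcr4 and Ackr3, every gene of the families that passed between tumours and normal cerebella or between the types, and up to 8 that never passed. Of each context list up to 3 genes with the smallest adjusted p were named, with Cx3cr1, Pf4, Ppbp and Ccrl2. One of the tested genes is counted in the totals but is not reported here. The genes and lists were chosen with earlier results of these data known. The alternatives were other scalings, background correction by normexp with an offset of 50, other filters and probe rules, slide as a term, fewer groups, the series table and leaving out each array. Gene positions are given as chromosome and order alone, since the array's annotation and the RefSeq table differ in build.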

Additional observations from a re-analysis of the deposited data

Results flagged for a closer look

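A single tumour stood apart from the other 5 of its type in 7 of 74 sets of 6 tumours, by the gap to its nearest neighbour over the whole range (critical value 0.625). Chance gives this in about 5% of sets. MB3 was involved most often among the S-type tumours. In MB3 the Cxcl12 scavenger Ackr3 was at −3.96 with the next S-type tumour at −2.64, Cx3cl1 at −1.19 with the next at −0.43, and Cxcr6 at −3.64 with the next at −5.0. MB3 was also the lowest of all 12 tumours for Cxcl12, at −1.76. The eosinophil attractant Ccl11 was at −0.65 in MB1, with the next S-type tumour at −1.86.

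Among the R-type tumours, MB12 had Ccr6 at −5.28, not above background, with the next at −4.69, and Ackr4 at −6.34 with the next at −7.47, none of them above background. MB7 had Cxcr6 at −3.8, the one R-type tumour above background, with the next at −5.96. The difference of Ccr2 between R-type and S-type tumours, −0.96, passed the threshold and is given with its tests in the report.

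Some genes outside the tests were well above background in single tumours and in no normal cerebellum. Ccr7, the lymph-node homing receptor, was at −5.32 in MB1 and −5.22 in MB7, and its highest normal value was −7.74. MB6 read higher for Ccr7, at −5.02, but was not well above background. The B-cell attractant Cxcl13 was at −4.08 in MB11, against −7.66. Cxcl3, a neutrophil attractant, was at −4.52 in MB6, the tumour with the highest Cxcl1, against −7.66. Cxcl9, an interferon-inducible attractant of T cells, was at −5.09 in MB7, the tumour with the highest Cxcl10, against −6.4. For Cxcl9 too MB6 read higher, at −4.98, without being well above background, so MB7 does not stand alone. These are single values without a replicate, and no cause was tested.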

How the results depend on the processing

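Over 25 alternatives, 911 of 921 values of the 37 genes between tumours and normal cerebella kept their direction and their side of the threshold, and 0 reversed. Cxcr4, Cxcl12 and Ackr3 were called in every alternative. Cxcr4 changed by 4.47 with normexp correction. Between the types, over 26 alternatives, 935 of 958 values did so, and 1 reversed: Ackr4, above background in no tumour, was 0.34 with normexp correction (limma adjusted p = 0.0045). The number of genes higher in R-type tumours, 0, was 4 with normexp correction and 0 to 1 when single arrays were left out (1 without MB1, MB3 or MB12). The number lower, 1, was 0 with the mean of each gene's probes, with normexp correction and with only the groups compared, 3 without scaling, and 0 to 3 when single arrays were left out (3 without MB3 or MB7). The Ccr2 difference was −0.41 with the mean of its probes, −0.36 with normexp correction, −0.96 with only the groups compared, and −1.14 to −0.79 when single arrays were left out. At 0.2 Gy the number higher was 1 with the mean of probes, 2 with normexp correction and 0 to 1 when single arrays were left out (1 without MB8 or MB11), and the number lower was 1 without scaling. The cause of these changes was not tested. Without scaling the median change of all names between tumours and normal cerebella went from 0.136 to −0.0391. No paired analysis was possible because the groups share no replicate numbers, and slides, which several groups share, were fitted as a term instead. Signals near background limit Ackr4, Ccl24, Ccr2, Ccr9, Ccr10, Cxcr2, Cxcr3 and Cxcr6, and 3 arrays a group limit all dose comparisons. The normal levels of Cxcr4 (−5.08 to −4.59), Ccl2 (−5.23 to −4.83) and Ackr2 (−5.13 to −4.89) were also low, which limits the size of their folds.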

Other observations

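Genes through which chemokine receptors act were called between the tumour types no more often than all names. Of 39 tested genes of receptor signalling and turnover, 4 were higher and 3 lower in R-type tumours, beside 10.9% and 10.1% of all names. Grk6, a kinase that switches off G protein-coupled receptors, had a mean of 0.26 ± 0.08 in R-type and 1.03 ± 0.07 in S-type tumours (SD, 6 each), a difference of −0.77 (SE 0.0577, limma adjusted p = 1.37e-05). The G protein subunit Gnb1 was higher by 0.46 (SE 0.0811, limma adjusted p = 0.00284). Rgs13, which shortens G protein signals, was above background in all 12 tumours and no normal cerebellum and was higher in R-type tumours by 2.06 (SE 0.37, limma adjusted p = 0.00308), from −2.77 ± 0.97 to −0.71 ± 0.62 (SD, 6 each).

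Mif, a cytokine that also binds Cxcr4 and Cxcr2, was higher in R-type tumours by 0.44 (SE 0.0964, limma adjusted p = 0.00862), the one call among 7 tested genes that cross with chemokine receptors. Of 16 genes of NF-kappaB and cytokine induction 2 were higher, Ltbr by 0.43 (limma adjusted p = 0.0381) and Tnfrsf1a by 0.24 (limma adjusted p = 0.0456). Of 20 interferon genes 1 was lower, Stat2, by −0.22 (limma adjusted p = 0.0472). Of 19 partners of Cxcr4 in granule precursor migration 3 were higher and 2 lower, among them the transcription factor Pax6 by 1.1 (SE 0.152), the neurotrophin receptor Ntrk2 by 0.77 (SE 0.208) and the ephrin receptor Ephb2 by −0.34 (SE 0.083). Among all names 10.9% were higher and 10.1% lower in R-type tumours, so these small counts describe the named genes and not their lists. The types differ in age as well as in label, and age and label cannot be told apart.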
